A study of Homo sapiens with 18 samples.

Results

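Transcripts of the 36 genes listed as aminoacyl-tRNA synthetases were followed in MDA-MB-436, a human line of triple-negative breast cancer, with and without SMARCAL1. The genes were taken by symbol from a fixed list of 20 cytosolic and 16 mitochondrial enzymes, and all 36 were present in both count tables, out of 57120 gene symbols in the TruSeq table and 44267 in the PLATE-seq table. SMARCAL1 is an annealing helicase that acts at stalled replication forks. Knockout clone 1 was compared with a control in 3 TruSeq stranded total RNA libraries each. PLATE-seq, a pooled plate-format mRNA assay, was run in 12 libraries, 2 each of knockout clones 1, 2 and 3 with their control, and 2 each of cells given siRNA against SMARCAL1 and of cells given a control siRNA. Each knockout line is a single clone, and the labels name the genotypes SMARCAL1 knockout and control without saying how the gene was disrupted, what the control line carried, or how long the siRNAs acted. The PLATE-seq titles name MDA-MB-436, whereas their cell line tags differ from library to library, running between MDA-MB-437 and MDA-MB-448, and the titles were followed. The labels call the replicates biological, and the p-values measure the spread between them. The spread between clones is not in these p-values, and this holds for the mean of the 3 clones too.

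A synthetase joins an amino acid to its transfer RNA, the step that gives the genetic code its meaning. The cytosolic enzymes serve cytoplasmic translation, and 8 of them sit in the multisynthetase complex with the scaffold proteins AIMP1, AIMP2 and EEF1E1. The mitochondrial enzymes, whose symbols end in 2, are nuclear-encoded, are imported into the organelle and charge the transfer RNAs that read the mitochondrial genome. Many cytosolic synthetase genes are known targets of ATF4, the transcription factor of the amino acid response. KARS and GARS each encode both a cytosolic and a mitochondrial form, so the division used here is by symbol and not by where every product acts.

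TruSeq totals were 10257584 to 19270648 counts and PLATE-seq totals 807872 to 3068902. The 6 TruSeq libraries divided by the number of symbols detected. Knockout replicate 1 with control replicates 1 and 2 had 36042 to 39068, while knockout replicates 2 and 3 with control replicate 3 had 28621 to 30653. Mitochondrially encoded transcripts took 0.637% to 0.891% of counts in the first 3 of these libraries and 0.302% to 0.370% in the others. In the PLATE-seq libraries they took 24.6% to 34.3%, so CPM of the 2 assays are shares of unlike totals. VIM, a mesenchymal marker of this line, averaged 1078 CPM (counts scaled to library size) in knockout and 1232 CPM in control TruSeq libraries, and the oestrogen receptor ESR1 averaged 0.292 and 0.5098 CPM. Of the 4 mesenchymal markers listed, CDH2, FN1 and ZEB1 passed the test given below between these groups, 2 higher and 1 lower, beside 6.27% of all genes. Of the 5 luminal and epithelial markers listed, 2 had enough counts to be tested and 0 passed, at log2 fold changes of -0.74 and 0.30. SMARCAL1 itself had 13.3, 14.7 and 13.9 CPM in the TruSeq knockout libraries, against 13.9, 13.99 and 16.01 CPM in the controls, and these overlapped. A disruption need not lower the transcript, so this level does not check the knockout labels. In PLATE-seq, SMARCAL1 had 0 counts in both libraries given SMARCAL1 siRNA, which allows up to 2.02 and 2.94 CPM (3 counts of each library), against 6.08 and 5.57 CPM in siRNA control libraries. It had 3 to 44 counts in the 6 knockout libraries and 0 and 3 in the controls.

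Per length of exon, the synthetases covered a wide range in TruSeq. Levels here are CPM per kb of merged exon, averaged over 3 libraries and given for knockout and then control. The cytosolic median was 31.5 and 32.8, and the mitochondrial median 8.10 and 8.16. TARS, which charges threonine transfer RNA, stood highest of the cytosolic enzymes with 102 and 108, ahead of IARS (isoleucine) with 76.6 and 82.1 and EPRS, the fused enzyme for glutamate and proline, with 77.7 and 73.8. CARS (cysteine) was lowest with 5.74 and 5.74, over a merged exon length of 10037 bases. Among mitochondrial enzymes IARS2 had 49.6 and 47.9, RARS2 (arginine) 39.4 and 31.7 and TARS2 21.6 and 22.8, while FARS2 (phenylalanine) was lowest with 1.69 and 1.54. The order of EPRS and IARS changed between the groups, and their means were closer together in knockout than in control libraries.

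In CPM, TARS had 601, 565 and 591 in knockout libraries, against 644, 618 and 594 in controls. IARS had 529.8, 597 and 573 in knockout libraries, against 597, 602 and 623 in controls. EPRS had 418, 430.01 and 423 in knockout libraries, against 397, 398 and 411 in controls. The groups of TARS and IARS overlapped, and every knockout value of EPRS was above every control value without passing the test given below. IARS2 had 198, 215 and 207 CPM in knockout libraries, against 203, 195 and 200.5 CPM in controls. TARS2 had 75.9, 97.1 and 91.5 CPM in knockout libraries, against 86.4, 93.2 and 98.8 CPM in controls. FARS2 had 7.66, 8.21 and 8.64 CPM in knockout libraries, against 6.71, 6.91 and 8.72 CPM in controls. All of these mitochondrial groups overlapped.

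**Figure D1:**
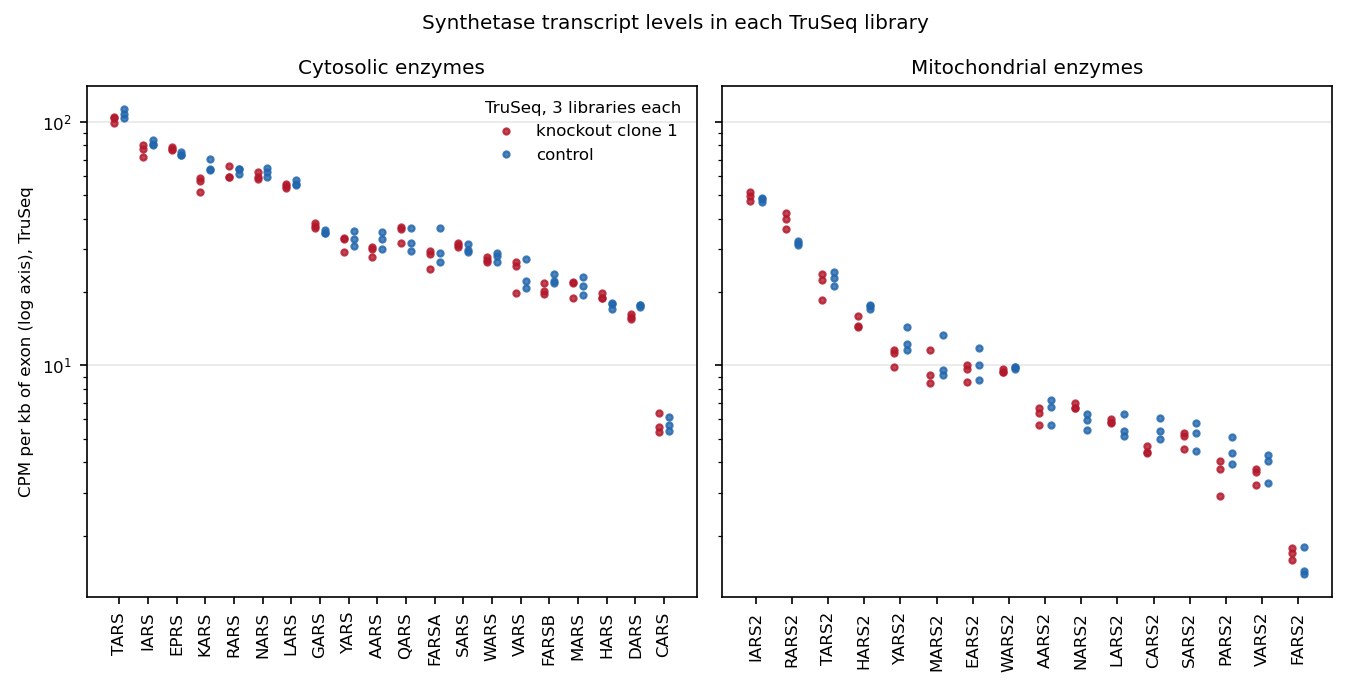
CPM per kb of merged exon (log axis) of each synthetase in the 3 knockout clone 1 and 3 control TruSeq libraries, ordered by the control mean. TARS stands highest at 102 and 108, and FARS2 lowest at 1.69 and 1.54, in knockout and control.

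Summed over the class, cytosolic synthetases took 4409 ± 108 CPM in TruSeq knockout libraries and 4545 ± 82.7 CPM in controls (SD, n = 3 each). The highest knockout sum, 4486 CPM, was just below the lowest control sum, 4487 CPM. Mitochondrial synthetases took 792 ± 33.0 CPM in knockout libraries and 804 ± 44.9 CPM in controls, and these overlapped. In PLATE-seq the cytosolic sum averaged 2292, 2313 and 2360 CPM in clones 1, 2 and 3 and 2513 CPM in the control, where the control libraries had 2697 and 2329 CPM. It averaged 2219 CPM with SMARCAL1 siRNA and 2209 CPM with control siRNA. The mitochondrial sum averaged 177, 170.4 and 163 CPM in the clones and 161 CPM in their control, and 146 CPM with SMARCAL1 siRNA and 176 CPM with control siRNA. Library sums of the clones overlapped those of the control in both classes. With SMARCAL1 siRNA, both mitochondrial sums, 156 and 135 CPM, were below both siRNA control sums, 190.3 and 161 CPM.

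**Figure D2:**
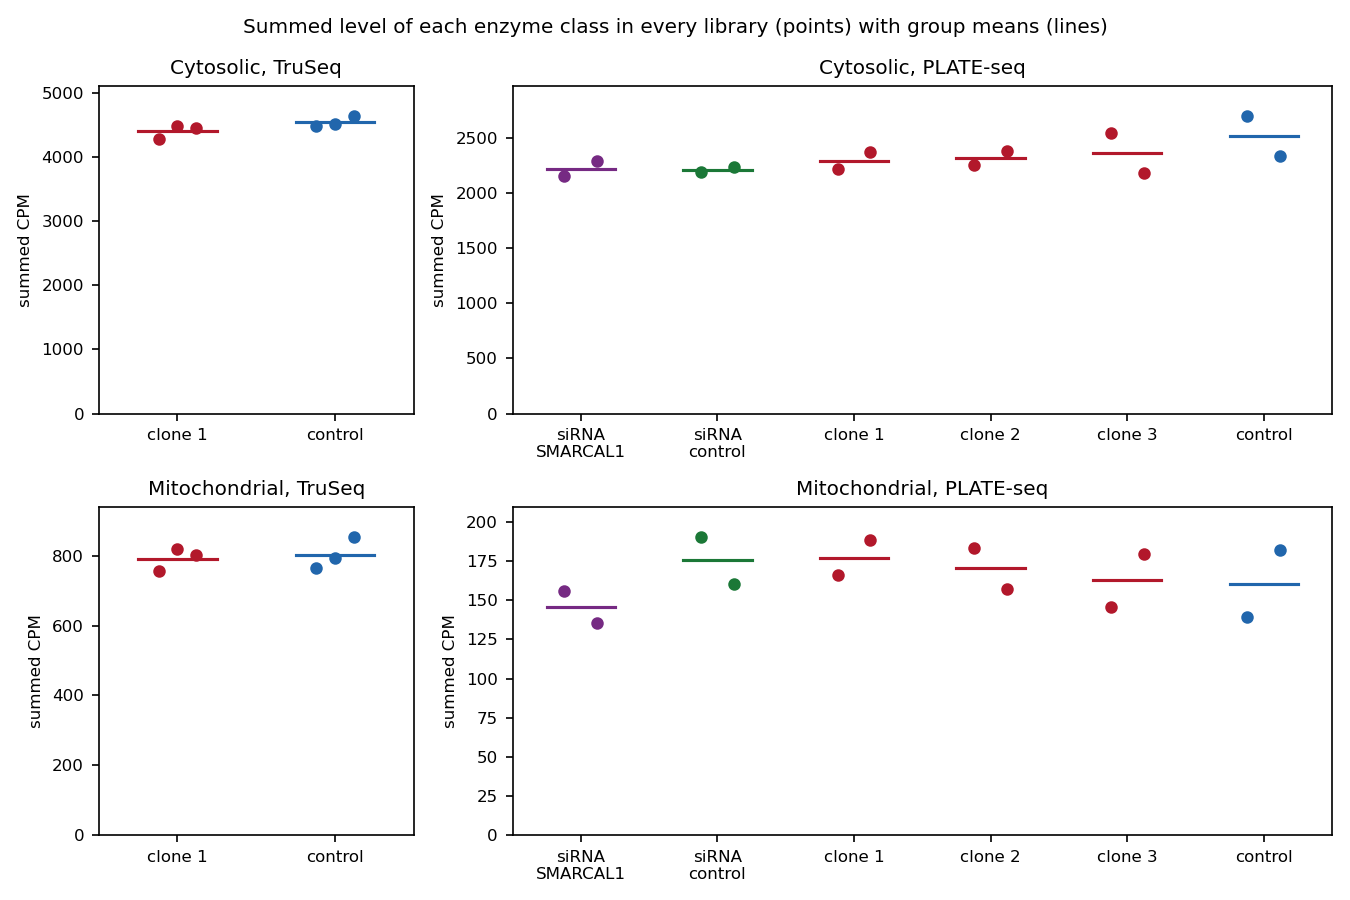
Summed CPM of the 20 cytosolic (top) and 16 mitochondrial (bottom) enzymes in each library, with group means as lines. In TruSeq the group means were 4409 against 4545 CPM for the cytosolic and 792 against 804 CPM for the mitochondrial enzymes.

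Knockout clone 1 was tested against control on TruSeq with edgeR's quasi-likelihood F test. The p-values were adjusted by Benjamini-Hochberg over 17371 genes, with a threshold of 0.05. As the knockout is a single clone here, loss of SMARCAL1 and other differences between this clone and the control cannot be told apart. Of the 20 cytosolic synthetases 0 passed in edgeR and 0 in DESeq2, and 2 were below 0.05 unadjusted, beside 20.4% of all genes. Of the 16 mitochondrial synthetases 1 passed, RARS2, which rose. Over all genes tested 6.27% passed, with 3.96% higher and 2.31% lower. The median log2 fold change was -0.04 for cytosolic and -0.07 for mitochondrial enzymes, beside 0.00 for all genes. In these bulk libraries a change in the share of cells in some state and a change of RNA per cell cannot be told apart.

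RARS2 (chr6:87514378-87590003 on the minus strand, GRCh38) charges mitochondrial arginine transfer RNA and is known from a hereditary brain malformation. It had 108, 92.00 and 101 CPM in knockout libraries, against 82.3, 80.9 and 79.2 CPM in controls. All 3 knockout values lay above all 3 control values. The log2 fold change was 0.31 (SE 0.08, 95% interval 0.14 to 0.48, edgeR adjusted p = 0.0477). That p was close to the threshold, and leaving out any 1 of the 6 libraries ended the call, with edgeR adjusted p from 0.0609 to 0.189 and log2 fold changes of 0.26 to 0.37. In PLATE-seq RARS2 was not called. It had 50.1 and 36.3 CPM in clone 1, 40.2 and 44.7 CPM in clone 2 and 16.3 and 49.7 CPM in clone 3, against 23.01 and 25.8 CPM in the control. Both libraries of clones 1 and 2 were above both control libraries, while clone 3 had 1 above and 1 below. The siRNA control libraries, at 53.9 and 25.1 CPM, also had 1 library well above the control of the clones. The log2 fold changes were 0.82, 0.80 and 0.45 in the clones (SE 0.52, 0.53 and 0.51).

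No other member passed the threshold. KARS, the lysine enzyme of the multisynthetase complex, had 209.8, 238 and 232 CPM in knockout libraries, against 258, 259 and 287 CPM in controls. The groups did not overlap, and the log2 fold change was -0.24 (SE 0.08, edgeR adjusted p = 0.105). DARS (aspartate), of the same complex, had 61.95, 63.7 and 65.2 CPM in knockout libraries, against 70.03, 71.4 and 71.2 CPM in controls. Its groups were also apart, at a log2 fold change of -0.16 (SE 0.06, edgeR adjusted p = 0.216). PARS2 (mitochondrial proline) had 6.83, 9.48 and 8.77 CPM in knockout libraries, against 9.26, 10.2 and 11.95 CPM in controls. Its groups overlapped, at a log2 fold change of -0.32 (SE 0.16, edgeR adjusted p = 0.306). The log2 fold changes of CARS2 and HARS2, the mitochondrial enzymes for cysteine and histidine, were -0.29 and -0.22, with groups apart and edgeR adjusted p of 0.0965 and 0.128. NARS2 (mitochondrial asparagine) was apart upward, at a log2 fold change of 0.20 (SE 0.09, edgeR adjusted p = 0.267).

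Groups lay apart upward for 3 cytosolic (EPRS, GARS and HARS) and 2 mitochondrial enzymes (NARS2 and RARS2). They lay apart downward for 3 cytosolic (DARS, FARSB and KARS) and 3 mitochondrial enzymes (CARS2, HARS2 and YARS2). Over all genes tested 13.6% were apart upward and 12.7% downward, so the members' counts were near the background. The 95% intervals of all 20 cytosolic log2 fold changes lay within 0.5 of zero, from -0.44 to 0.33, and so did 14 of the 16 mitochondrial intervals, which ran from -0.69 to 0.48. The median SE was 0.07 for cytosolic and 0.11 for mitochondrial members, beside 0.14 for all genes.

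HARS and HARS2 had log2 fold changes of opposite sign. HARS (chr5:140673904-140691862 on the minus strand) and HARS2 (chr5:140691426-140699318 on the plus strand) are read away from each other from starts 436 bases apart, and share 437 exon bases on opposite strands. HARS had 148, 149 and 155 CPM in knockout libraries, against 134, 142 and 141 CPM in controls, a log2 fold change of 0.12 (SE 0.06). HARS2 had 53.8, 59.8 and 54.5 CPM in knockout libraries, against 65.7, 63.8 and 65.8 CPM in controls, a log2 fold change of -0.22 (SE 0.07). Neither passed, with edgeR adjusted p of 0.324 and 0.128. The strand setting of the counting is not given in the sources used here, so reads of the shared bases cannot be assigned. In GENCODE 29, 20 of the 36 members share exon bases with another gene, 17 of them with a gene on the opposite strand. KARS shares 176 with TERF2IP, MARS 355 with DDIT3, and CARS 205 with CARS-AS1.

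The count of calls depended on whether the number of symbols detected was taken into account. With that split as a term in the edgeR fit, 4 cytosolic and 6 mitochondrial members were called lower and RARS2 higher. The calls over all genes became 21.8%, with 11.4% higher and 10.4% lower. The cytosolic members called lower were KARS at -0.29 (SE 0.05, edgeR adjusted p = 3.23e-05), FARSA at -0.26, AARS at -0.20 and DARS at -0.17 on the log2 scale. The mitochondrial members called lower were PARS2 at -0.44, CARS2 at -0.34, YARS2 at -0.31, MARS2 at -0.27, HARS2 at -0.23 and EARS2 at -0.21. RARS2 was higher by 0.34 (SE 0.06, edgeR adjusted p = 6.96e-05).

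Within the 3 libraries with many symbols (1 knockout, 2 controls) and within the 3 with few (2 knockouts, 1 control), the log2 fold changes were -0.31 and -0.29 for KARS and 0.39 and 0.28 for RARS2. Each of these fits leaves a group with a single library, taken to vary like the others, and was added after the split had been seen, so the values are given as a description. They called 6.39% and 13.8% of all genes. Of the 20 cytosolic members 12 were lower and 4 higher on both sides of the split, and of the 16 mitochondrial members 11 were lower and 2 higher. Of the 17417 genes tested on both sides, 36.9% were lower and 35.1% higher on both. Whether the members differ from all genes in this was not tested.

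**Figure D3:**
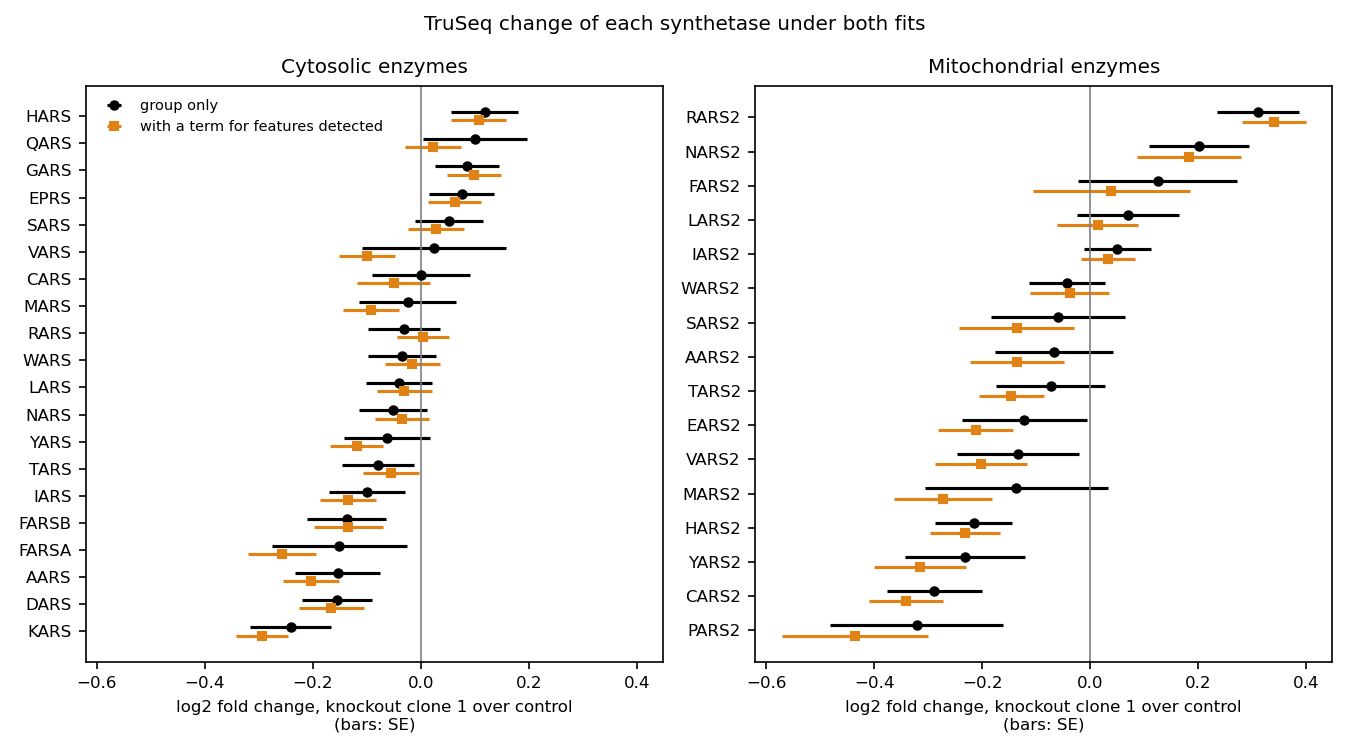
Log2 fold change of each synthetase in TruSeq, knockout clone 1 over control, with SE bars, from the fit on group alone (circles) and the fit with a term for the number of symbols detected (squares). RARS2 is highest under both fits, at 0.31 and 0.34, and KARS is the lowest cytosolic enzyme, at -0.24 and -0.29.

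PLATE-seq reached fewer of the members and with less precision. All 20 cytosolic enzymes passed the filter on low counts, and 9 of the 16 mitochondrial ones. The 7 left out were AARS2, FARS2, LARS2, MARS2, PARS2, SARS2 and VARS2, and SARS2 had 0 counts in 7 of the 12 libraries. The median SE of the log2 fold change of the mean of the 3 clones over control was 0.28 for cytosolic and 0.61 for mitochondrial members. For single clones it was 0.33 to 0.35 and 0.73 to 0.74. The contrasts of the clones and of the siRNA control all use the same 2 control libraries, so a deviation of either control library enters each of them.

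CARS, the cytosolic cysteine enzyme (chr11:3000922-3057613 on the minus strand), was the only member called in PLATE-seq. Averaged over the 3 clones it had 95.6, 63.98 and 68.7 CPM by clone, against 235 CPM in the control, and it fell by 1.65 on the log2 scale (SE 0.32, edgeR adjusted p = 0.0176). It was 1 of the 0.198% of all 8595 genes called in that contrast, 0.151% lower. Library by library, CARS had 67.7 and 123 CPM in clone 1, 68.03 and 59.9 CPM in clone 2 and 63.9 and 73.4 CPM in clone 3, against 367 and 103 CPM in the control. The first control library stood far above all others, and the second lay within the range of the knockout libraries. In raw counts the first had 335 and the second 84.

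Clone by clone, CARS fell in clone 3, by 1.78 on the log2 scale (SE 0.42, edgeR adjusted p = 0.0463), where 0.675% of all genes were called, 0.361% lower. In clones 2 and 1 its log2 fold changes were -1.88 (edgeR adjusted p = 0.105) and -1.30 (edgeR adjusted p = 0.352), with 0.0349% and 0% of all genes called. Control siRNA gave -1.40 against the same control (edgeR adjusted p = 0.344), with 0.0116% of all genes called. Between SMARCAL1 siRNA, at 105 and 117 CPM, and control siRNA, at 67.8 and 111 CPM, the log2 fold change was 0.31 (SE 0.42).

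Both CARS calls rested on control replicate 1. Without it the log2 fold change was -0.45 for the mean of the clones (edgeR adjusted p = 0.757) and -0.57 for clone 3 (edgeR adjusted p = 0.691). Set against the siRNA control instead, the clones gave a CARS log2 fold change of -0.26 (edgeR adjusted p = 0.938). The control replicates differed by 1.82 on the log2 scale for CARS, and by 1.47 or less for every other member tested. In TruSeq, where clone 1 was also measured, CARS had 53.3, 63.7 and 55.9 CPM in knockout libraries, against 57.2, 54.2 and 61.6 CPM in controls, a log2 fold change of 0.00 (SE 0.09, 95% interval -0.21 to 0.21).

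**Figure D4:**
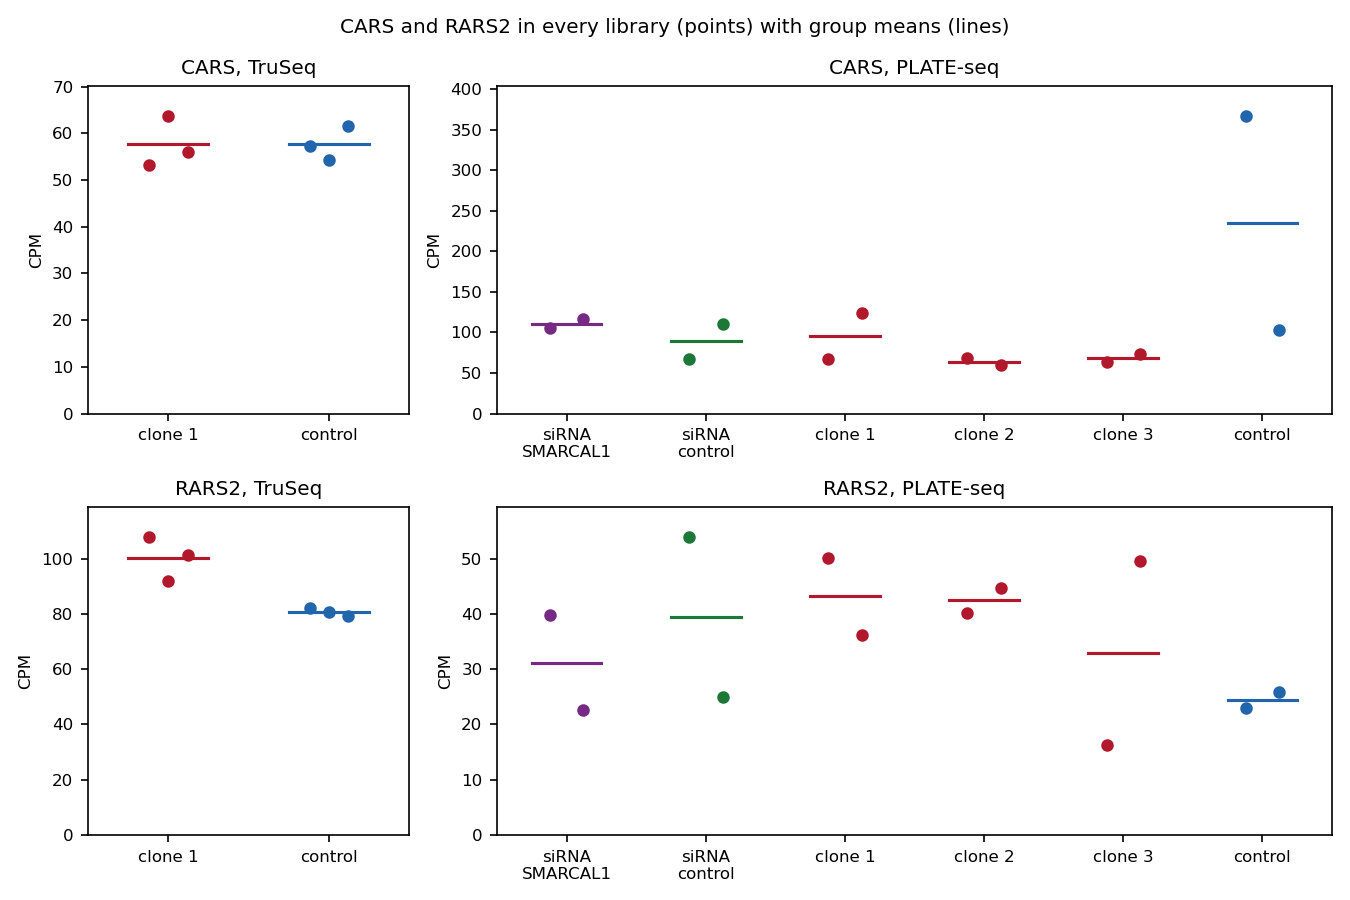
CPM of CARS (top) and RARS2 (bottom) in every TruSeq and PLATE-seq library as points, with group means as lines. In PLATE-seq the first control library of CARS, at 367 CPM, is above every other library, and in TruSeq the RARS2 knockout values, 108, 92.00 and 101 CPM, are all above the control values, 82.3, 80.9 and 79.2 CPM.

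The 19 other cytosolic members were spread to both sides in PLATE-seq, with 10 positive and 9 negative log2 fold changes for the mean of the clones and a median of 0.02, beside -0.01 for all genes, of which 49.5% were positive and 50.5% negative. FARSA, the catalytic subunit of the phenylalanine enzyme, had 48.3 and 22.2 CPM in clone 1, 42.3 and 38.6 CPM in clone 2 and 20.3 and 30.7 CPM in clone 3, against 18.6 and 19.7 CPM in the control. All 6 knockout values were above both controls, at a log2 fold change of 0.79 that did not pass (SE 0.43, edgeR adjusted p = 0.561). Both siRNA control libraries, at 24.3 and 27.8 CPM, were above these controls too. Against the siRNA control, the clones gave a FARSA log2 fold change of 0.34 (SE 0.40, edgeR adjusted p = 0.929). For the mean of the clones over control, NARS (asparagine) was also apart upward and GARS (glycine) apart downward. Their log2 fold changes were 0.59 and -0.64, with edgeR adjusted p of 0.588 and 0.475. Over all genes 6.52% were apart upward and 5.48% downward.

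IARS had 15.3 and 11.9 CPM in clone 1, 24.7 and 27.4 CPM in clone 2 and 11.01 and 27.4 CPM in clone 3, against 8.77 and 13.5 CPM in the control. It stood above the control in both libraries of clone 2, with a log2 fold change of 1.23 there that did not pass (SE 0.62, edgeR adjusted p = 0.549). WARS, the tryptophan enzyme, had 305 and 206 CPM in clone 3, against 130.4 and 150.03 CPM in the control. It was apart upward, and its log2 fold change of 0.87 did not pass (SE 0.30, edgeR adjusted p = 0.207). WARS had 153 and 145 CPM in clone 1 and 111 and 109 CPM in clone 2, and of all members it differed most among the clones, with an edgeR adjusted p of 0.0802 in the F test over the 3 clones. In that test 0 members passed and 0.71% of all genes did, while 4 of 20 cytosolic and 1 of 9 mitochondrial members were below 0.05 unadjusted, beside 11.3% of all genes.

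Of the 9 mitochondrial members tested, 0 passed in any PLATE-seq contrast in edgeR or DESeq2. In edgeR 0% to 0.675% of all genes passed against control or siRNA control. Only 1 member, CARS2 in clone 1, was below 0.05 unadjusted against a control, beside 8.19% of all genes. IARS2 had 5.89 and 6.496 CPM in clone 1, 2.06 and 4.06 CPM in clone 2 and 8.37 and 9.93 CPM in clone 3, against 3.29 and 2.46 CPM in the control. The control values rest on 3 and 2 counts, and the log2 fold change of the mean of the clones, 0.93, had a 95% interval of -0.91 to 2.78. TARS2 had 3.53 and 21.7 CPM in clone 1, 5.15 and 8.13 CPM in clone 2 and 14.1 and 6.32 CPM in clone 3, against 12.1 and 22.1 CPM in the control, and its clone 2 libraries were both below the control. CARS2 had 7.66 and 8.66 CPM in clone 1, against 20.8 and 33.2 CPM in the control. That difference was apart downward, at a log2 fold change of -1.71 (SE 0.56, edgeR adjusted p = 0.383). CARS2 in clones 2 and 3 had log2 fold changes of -0.29 and -0.39, with overlapping groups. WARS2 had 16.5 and 22.3 CPM in clone 2, against 10.96 and 11.1 CPM in the control, with a log2 fold change of 0.81 (SE 0.74).

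Per clone, many members lay apart from the 2 control libraries, as did many genes. In clone 1, 3 of 20 cytosolic members were apart upward and 2 downward, beside 20.8% and 18.4% of all genes. In clone 2 the counts were 5 and 7, beside 19.5% and 18.8%. In clone 3 they were 5 and 4, beside 22.8% and 19.3%. Of the 9 mitochondrial members tested, 4, 2 and 3 were apart upward in clones 1, 2 and 3, and 1, 2 and 1 downward, beside the same shares of all genes. With groups of 2 libraries such separation is common. The cytosolic share was below the background in clone 1 and above it in clone 2 for members apart downward, a difference that was not tested.

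Silencing SMARCAL1 by siRNA was compared with control siRNA. Of the 20 cytosolic and 9 mitochondrial members tested, 0 passed in edgeR and 0 in DESeq2, with 0% of all genes called and 6.33% below 0.05 unadjusted. Of the members 2, LARS and EPRS, were below 0.05 unadjusted. LARS (leucine), a member of the multisynthetase complex, had 81.6 and 101 CPM with SMARCAL1 siRNA, against 198 and 212 CPM with control siRNA. Both SMARCAL1 siRNA values were well below both control values, at a log2 fold change of -1.17 (SE 0.31, unadjusted p = 0.000783 and edgeR adjusted p = 0.323). IARS had 10.8 and 16.7 CPM with SMARCAL1 siRNA, against 16.5 and 35.5 CPM with control siRNA, and these overlapped. EPRS, also of the complex, was apart downward at -0.77 (SE 0.35, edgeR adjusted p = 0.753).

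In the clones the log2 fold changes of LARS were 0.05, -0.42 and -0.04. The test of the knockout effect less the siRNA effect gave 1.03 for LARS (SE 0.39, edgeR adjusted p = 0.5296), and 0 members and 0% of all genes passed that test. TARS2 had 12.8 and 8.82 CPM with SMARCAL1 siRNA, against 26.1 and 13.2 CPM with control siRNA, and was apart downward at -0.83 (SE 0.74). YARS2 (mitochondrial tyrosine) had 6.07 and 18.6 CPM with SMARCAL1 siRNA, against 5.21 and 9.05 CPM with control siRNA, which overlapped. Of the 20 cytosolic members 3 were apart upward and 6 downward, beside 18.1% and 19.2% of all genes. Of the 9 mitochondrial members 0 were apart upward and 1 downward.

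The siRNA control was also set against the control of the clones, a comparison in which SMARCAL1 was targeted on neither side. Of the members tested 0 passed in edgeR and 0 in DESeq2, with 2 cytosolic and 0 mitochondrial members below 0.05 unadjusted, beside 7.77% of all genes. IARS had 16.5 and 35.5 CPM with control siRNA, against 8.77 and 13.5 CPM in the control, a log2 fold change of 1.23 (SE 0.61, edgeR adjusted p = 0.6496). IARS2 had 9.56 and 9.05 CPM with control siRNA, against 3.29 and 2.46 CPM in the control, a log2 fold change of 1.66 (95% interval -0.40 to 3.72). NARS2 had 3.48 and 2.78 CPM with control siRNA, against 6.58 and 7.38 CPM in the control, a log2 fold change of -1.14 (95% interval -3.30 to 1.01). For each of these the groups were apart, as they were upward for 19.4% and downward for 17.1% of all genes. GARS, lower in the clones, was at -0.93 in this contrast too (edgeR adjusted p = 0.537).

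**Figure D5:**
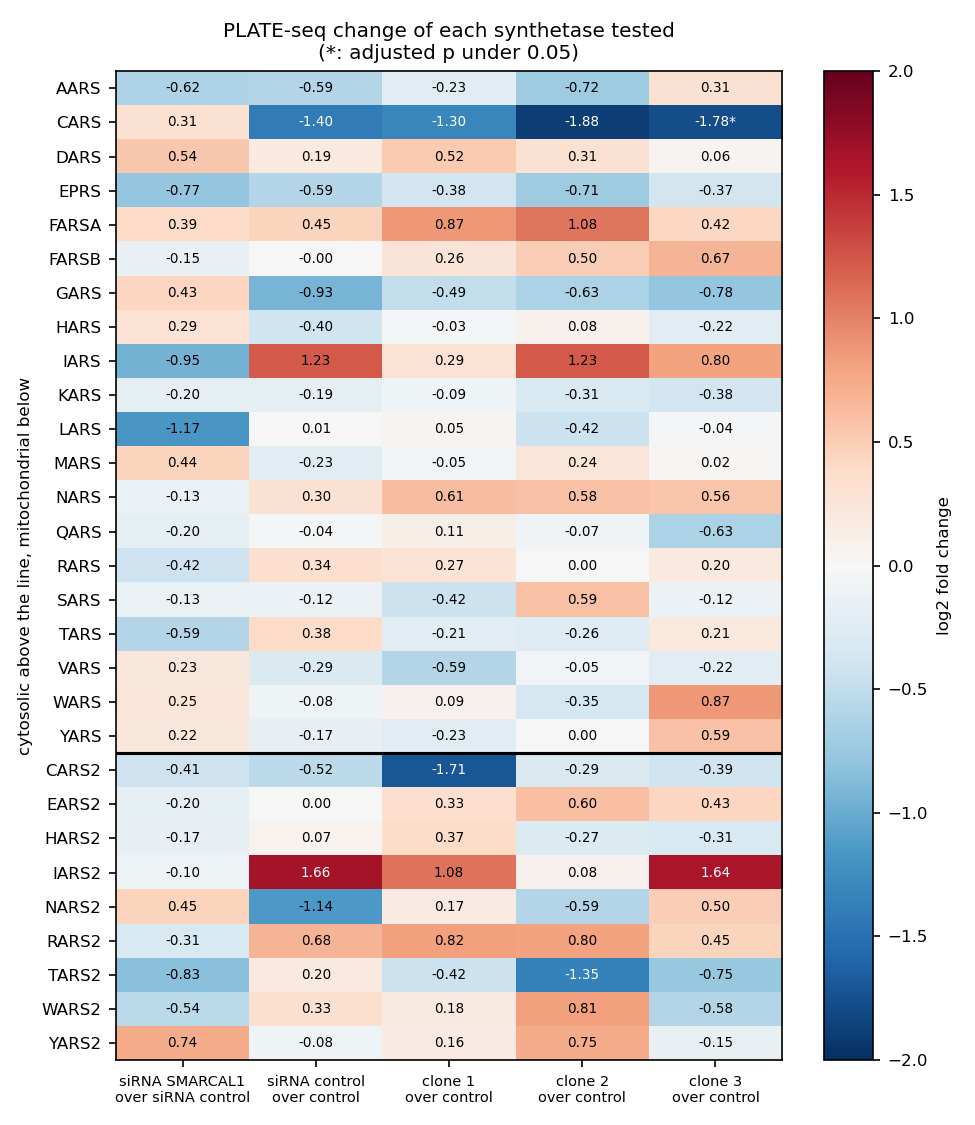
Log2 fold change in PLATE-seq of the 20 cytosolic (above the line) and 9 mitochondrial (below) synthetases tested, for SMARCAL1 siRNA over siRNA control, siRNA control over control, and each knockout clone over control. CARS in clone 3, at -1.78, is the only marked cell, and CARS is also at -1.40 for the siRNA control.

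Clone 1 was measured by both assays in separate libraries with separate controls. Of the 29 members tested in both, 11 had the same sign of log2 fold change, 6 of 20 cytosolic and 5 of 9 mitochondrial. Pearson's r over the 29 members was 0.17 and Spearman's rho -0.10, as a description across genes that share the libraries of each assay. By class, r and rho were -0.42 and -0.43 for the 20 cytosolic members and 0.58 and 0.57 for the 9 mitochondrial members. RARS2 was positive in both, at 0.31 in TruSeq and 0.82 in PLATE-seq. CARS2 was negative in both, at -0.29 and -1.71.

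Promoter sequence was read because many cytosolic synthetases answer to ATF4, which binds a composite C/EBP-ATF response element. RefSeq promoter windows on GRCh38.p14, from 250 bases before to 50 bases after each start, were found for 30 of the 36 members. The letters TGATGNAA on either strand, the shape of that element, were present in 7 of 21 cytosolic and 1 of 18 mitochondrial windows, and in 3.62% of all 35116 windows. Each stretch below is 30 bases in the direction of transcription, with the matched letters in capitals, and the strand of the gene in brackets. The 7 cytosolic carriers are shown because CARS, the member called in PLATE-seq, is one of them.

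AARS chr16:70289675-70289704 (-): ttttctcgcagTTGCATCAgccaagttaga
CARS chr11:3057407-3057436 (-): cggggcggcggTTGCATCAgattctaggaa
IARS chr9:92293692-92293721 (-): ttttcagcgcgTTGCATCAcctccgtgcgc
MARS chr12:57488053-57488082 (+): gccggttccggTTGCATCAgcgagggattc
TARS chr5:33440956-33440985 (+): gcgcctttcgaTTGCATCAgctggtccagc
NARS chr18:57621804-57621833 (-): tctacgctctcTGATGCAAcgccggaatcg
GARS chr7:30594834-30594863 (+): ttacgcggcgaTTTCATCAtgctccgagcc

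AARS, CARS, IARS, MARS and TARS carry the same 8 letters, TTGCATCA. NARS holds its match on the strand of transcription, and the other 6 on the opposite strand. The only mitochondrial carrier was YARS2, shown for contrast.

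YARS2 chr12:32756076-32756105 (-): atccacactgcTGATGGAAaaattaagttt

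A match is a description of the letters and not a site or a cause. The ETS letters CCGGAAG on either strand were present in 11 of 21 cytosolic and 8 of 18 mitochondrial windows, and in 10.3% of all windows. The 21 cytosolic windows belong to 16 genes and the 18 mitochondrial windows to 14 genes.

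The 7 carriers lay on both sides of zero, as did the other members. In TruSeq their median log2 fold change was -0.05, from -0.15 to 0.09, and it was -0.03, from -0.24 to 0.12, for the 9 other cytosolic members with a window. For the mean of the clones in PLATE-seq it was -0.09, from -1.65 for CARS to 0.77 for IARS, and 0.02, from -0.49 to 0.79, for the other 9. With SMARCAL1 siRNA over control siRNA it was -0.13 for the carriers and -0.15 for the others.

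ATF4 fell in TruSeq, with 224, 248 and 247 CPM in knockout libraries, against 302, 319 and 323 CPM in controls. Its log2 fold change was -0.39 (SE 0.07, edgeR adjusted p = 0.0131). It was the only one of 26 amino acid response genes tested, out of 28 listed, that passed there, and their median log2 fold change was 0.00. In PLATE-seq 24 of them were tested and 0 passed against control or siRNA control, beside 0% to 0.675% of all genes. There ATF4 was at -0.51, -0.69 and 0.06 in clones 1, 2 and 3 and at -0.15 with SMARCAL1 siRNA over control siRNA. Of the 12 cytosolic synthetases listed as ATF4 targets, 0 passed in TruSeq, beside 6.27% of all genes, with a median log2 fold change of -0.04. In PLATE-seq 1, CARS, passed for the mean of the clones and for clone 3, beside 0.198% and 0.675% of all genes. Both of these calls rested on control replicate 1, as given above.

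The enzymes of the multisynthetase complex, for arginine, glutamine, glutamate with proline, isoleucine, leucine, lysine, methionine and aspartate, gave 0 calls of 8 in every contrast. Over all genes 6.27% were called in TruSeq and 0% to 0.675% in the PLATE-seq contrasts against control or siRNA control. The median log2 fold change of the 8 enzymes was -0.04 in TruSeq, -0.04 for the mean of the clones and -0.31 with SMARCAL1 siRNA over control siRNA. The medians over all genes were -0.004, -0.006 and -0.015. The scaffold genes also gave 0 calls of 3, beside the same shares of all genes. AIMP1 had 81.9, 78.1 and 73.98 CPM in TruSeq knockout libraries, against 99.1, 95.7 and 86.3 CPM in controls, and was apart downward at -0.26 (SE 0.08, edgeR adjusted p = 0.0897). In PLATE-seq it was apart upward for the mean of the clones, at 1.13 (SE 0.31, edgeR adjusted p = 0.135), and at 0.88 for the siRNA control over the same control (edgeR adjusted p = 0.5302). AIMP2 and EEF1E1 were at 0.15 and 0.16 in TruSeq.

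Genes that act beside the synthetases were tested in the same fits. Over all genes in TruSeq 6.27% were called, 3.96% higher and 2.31% lower. Negative log2 fold changes in TruSeq were seen for 14 of the 17 and 15 of the 20 genes in the lists below. The median log2 fold changes of the lists were -0.12 and -0.08, beside -0.004 for all genes. Whether these lists differ from all genes was not tested. Of 17 genes for transfer RNA processing and delivery 1 was called in TruSeq, POP1, a protein subunit of RNase P and RNase MRP, at -0.33 (SE 0.08, edgeR adjusted p = 0.0447). Of 20 genes for mitochondrial translation and transfer RNA modification 2 were called, both lower. TRIT1, which modifies an adenosine next to the anticodon, had 33.4, 32.5 and 29.3 CPM in knockout libraries, against 47.7, 42.6 and 44.3 CPM in controls, at -0.50 (SE 0.09, edgeR adjusted p = 0.0125). GATB, a subunit of the amidotransferase that completes mitochondrial glutamine transfer RNA after EARS2 has charged it with glutamate, was at -0.35 (SE 0.08, edgeR adjusted p = 0.0425). EARS2 itself was at -0.12 (SE 0.12, edgeR adjusted p = 0.624). In PLATE-seq 0 genes of either list passed against control or siRNA control, beside 0% to 0.675% of all genes. EEF1A2, a translation elongation factor, differed among the clones (edgeR adjusted p = 0.0202), as did 0.71% of all genes.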

How the data were processed

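The authors deposited raw counts by gene symbol, made with STAR and HTSeq on hg38, per the submitters' processing notes. Versions, annotation release and strand setting are not given in the sources used here. The PLATE-seq table also held 92 spike-in entries, left out of library sizes and tests. Each assay was fitted by itself with edgeR 4.0.16 in R 4.3.3 on the counts: filterByExpr kept 17371 TruSeq and 8595 PLATE-seq genes, TMM set the library sizes, and group was the single term of the quasi-likelihood F test, with 4 and 6 residual degrees of freedom. All 12 PLATE-seq libraries shared 1 fit, which covered the 3 clones, their mean and the siRNA contrasts. Two-sided p-values were adjusted over every gene tested in the assay by Benjamini-Hochberg, with a threshold of 0.05. The biological coefficient of variation came to 0.123 for TruSeq and 0.330 for PLATE-seq. The SE of a log2 fold change is its size over the root of F. CPM use TMM library sizes. A floor of 3 counts was 0.164 to 0.277 CPM in TruSeq and 0.903 to 3.69 CPM in PLATE-seq libraries and covers counting error only. Groups are called apart when no value of one lies within the range of the other.

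Coordinates, merged exon lengths and overlaps came from GENCODE 29, and promoter windows from RefSeq. Alternatives were other scaling, no scaling, no filter, DESeq2 1.42.0, a replicate block, a term for the number of symbols detected, fits on the compared groups alone, the clones against the siRNA control, and leaving out each library. Fits within libraries with many or few symbols were chosen after seeing the data. The code was tested on simulated counts. The members, the gene lists and the tests were chosen with earlier results of these data known. Every member past the threshold is given library by library, with the members of the 2 largest absolute log2 fold changes per class and contrast and the 3 highest and the lowest per class by CPM per kb.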

Additional observations from a re-analysis of the deposited data

How the results depend on the processing

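In TruSeq the count of cytosolic members called, 0, became 1 without a scaling factor, 4 with a term for symbols detected, 1 within the libraries with many symbols and 3 within those with few. It ran from 0 to 0 over the fits that left out each library. The mitochondrial count, 1, became 0 without a scaling factor, 0 without the filter, 7 with the term and 5 within the libraries with few symbols, and ran from 0 to 0 when each library was left out. For the mean of the clones the cytosolic count, 1, became 0 against the siRNA control and ran from 0 to 1 when each library was left out. In clone 2 it was 0 and became 1 without the filter and 1 with DESeq2, with 0 to 1 over the left-out libraries. In clone 3 it was 1 and became 0 without a scaling factor and 0 on the compared groups alone, with 0 to 1 over the left-out libraries. For the siRNA control against the control it was 0 and became 1 without the filter, with 0 to 1 over the left-out libraries. The counts for the knockout effect less the siRNA effect and for the differences among clones, 0 each, became 1 and 1 without the filter. The cause of these changes was not tested, apart from the fewer samples in the fits that leave libraries out. Among named members, directions turned for YARS2 with SMARCAL1 siRNA over control siRNA, at -0.24 without replicate 2 of the SMARCAL1 siRNA in place of 0.74 (-0.24 to 1.36 over the left-out libraries), and for IARS2 in the mean of the clones, at -0.72 against the siRNA control in place of 0.93. Of the class medians under alternatives, 15 of 158 changed sign, among them the mitochondrial median in TruSeq, at 0.01 without control replicate 3 in place of -0.07. Counts stayed within 1.5 times in 154 of 185 cases, but every main count was 0 or 1, and a 0 that stayed 0 was included. The mitochondrial count of 1 in TruSeq was the same in 3 of 14 alternatives. The cytosolic count of 1 was the same in 13 of 15 for the mean of the clones and in 4 of 10 for clone 3. Named members kept their direction and call in 293 of 323 cases, most of them members not called that stayed not called. Of the members called, RARS2 in TruSeq was the same in 6 of 14 alternatives. CARS was the same in 13 of 15 for the mean of the clones and in 4 of 10 for clone 3.

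The labels state no pairing by replicate number, and the main fit used none. In PLATE-seq the spike-in share did divide by replicate number. Spike-ins took 0.0230% to 0.0534% of counts in the replicate 1 libraries and 0.000205% to 0.00136% in the replicate 2 libraries, without overlap. Whether the 2 sets of PLATE-seq libraries differ in other ways was not tested. Deviations of same-numbered TruSeq libraries correlated at 0.58, -0.27 and 0.38 for replicates 1, 2 and 3. The best correlation with another number was 0.32, 0.57 and -0.17, so these values do not settle whether the numbers pair the libraries. A replicate block raised the TruSeq calls over all 17371 genes from 1089 to 2387. With the replicate block, TruSeq gave 1 cytosolic call (KARS, edgeR adjusted p = 0.0190) and 2 mitochondrial calls (1 higher, 1 lower), and clone 3 in PLATE-seq gave 0 cytosolic calls (CARS, edgeR adjusted p = 0.0596).

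Intervals were wide in PLATE-seq, with 2 libraries a group and low counts: 0 of the 9 mitochondrial members tested had a 95% interval within 1 of zero on the log2 scale in clones 1, 2 or 3 over control, and 9, 9 and 8 of the 20 cytosolic members did.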

Other observations

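The 2 assays ranked some synthetases very differently, as seen in CPM within each gene and without regard to length. IARS, among the highest in TruSeq with 529.8 to 623 CPM over the 6 libraries, had 8.77 to 35.5 CPM over the 12 PLATE-seq libraries. IARS2 had 195 to 215 CPM in TruSeq and 2.06 to 9.93 CPM in PLATE-seq. VARS, the valine enzyme, went the other way, with 120.2 to 167 CPM in TruSeq and 276 to 484 CPM in PLATE-seq. CARS had 53.3 to 63.7 CPM in TruSeq and 59.9 to 367 CPM in PLATE-seq. As a sum, mitochondrial members were 18.0% of the cytosolic sum in TruSeq knockout libraries and 17.7% in TruSeq controls, and 6.39% to 7.95% in the 6 PLATE-seq groups. The assays differ in RNA selection, depth and the part of the transcript read, and the part of each in these values was not tested.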
